A study of Mus musculus with 14 samples.

Results

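The enzymes described here build and remodel the glycerophospholipids of cell membranes. They are a list of 35 gene symbols, drawn up with earlier results of these data known, for acyltransferases, lipins, the Kennedy pathway, and the synthesis of phosphatidylserine and cardiolipin. All 35 were among the 55291 symbols of both count tables. The series holds 14 poly(A) RNA libraries of wild-type mice from 2 experiments. In the first, 4 ND-646 and 4 vehicle libraries came from whole splenocytes of OT-1 mice, a strain with a transgenic CD8+ T cell receptor specific for an ovalbumin peptide. Both groups received 1 µg/mL of that peptide and 200 U/mL of human interleukin-2 over 7 days (activation for 3 days, then expansion for 4), in the presence of 100 nM ND-646, which inhibits acetyl-CoA carboxylase, or of DMSO as vehicle. In the second, 3 tumour and 3 spleen libraries came from CD8+ T cells enriched and sorted from MCA205 fibrosarcomas and from spleens of C57BL/6 mice, 14 days after the tumour cells were injected under the skin. Tumour samples were pooled, per the labels, which do not give what was combined. Whether replicates were separate mice or cultures is not stated either, so p-values cover only how far these libraries differ among themselves, and that spread may be technical.

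Glycerophospholipid synthesis starts when fatty acyl chains are put onto glycerol-3-phosphate and then onto lysophosphatidic acid, which gives phosphatidic acid. From there the lipins make diacylglycerol, which the Kennedy pathway joins to activated choline or ethanolamine to give phosphatidylcholine and phosphatidylethanolamine. Phosphatidic acid is also turned into CDP-diacylglycerol, which leads to phosphatidylinositol and to the mitochondrial lipid cardiolipin. Finished phospholipids are refitted by enzymes that put new acyl chains onto lysophospholipids. T cells need new membrane when they divide after activation, and acetyl-CoA carboxylase makes the malonyl-CoA from which new fatty acyl chains are built.

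The libraries held 23.5 to 33.8 M estimated counts in the ND-646 experiment and 19.6 to 21.02 M in the tumour experiment (M, 1e+06). A count of 0 allows up to 3 counts, which is at most 0.129 and 0.154 CPM (counts per 1e+06, scaled by TMM within each table), a limit that covers counting error only. Cd3e, Cd8a and Cd8b1, which mark CD8+ T cells, were high in all 4 groups, and Cd4 did not pass 1.58 CPM in any library. Tumour library 1 stood apart, with 23749 genes over 0 against 20461 and 20536 in the other tumour libraries. Within the ND-646 group, libraries 1 and 4 (chi-square per degree of freedom 5.39) and libraries 2 and 3 (3.86) were nearer each other than the other pairs (7.90 to 12.2). Transcripts of other cells and states moved with both comparisons. The summed level of 12 cell cycle genes was 1428 to 1780 CPM in ND-646 and 2713 to 2857 CPM in vehicle libraries, and 2416 to 2620 CPM in tumour and 426 to 537 CPM in spleen libraries. The summed level of 23 fibroblast and fibrosarcoma genes was 12420 to 17909 CPM in tumour and 5.93 to 21.9 CPM in spleen libraries, with Lum at 0 in spleen and 22 of 22 tested members higher in tumour (exact two-sided permutation p = 0.1, the smallest that 3 against 3 libraries allow). These sums were 21.6 to 23.4 CPM in ND-646 and 22.3 to 25.4 CPM in vehicle libraries (exact two-sided permutation p = 0.343). Of 18 macrophage, monocyte and neutrophil genes, 5 of 6 tested fell in ND-646 cultures (sums of 67.3 to 80.6 CPM in ND-646 and 310 to 321 CPM in vehicle libraries, mostly Spp1 at 54.1 ± 6.14 CPM in ND-646 and 229 ± 5.96 CPM in vehicle libraries, with C1qc, S100a8, S100a9 and Csf3r at 0 in both), and 9 of 12 tested rose in tumour (410 to 525 CPM in tumour, of which Spp1 made up 385 ± 64.4 CPM, and 30.1 to 43.6 CPM in spleen libraries, with Ly6g at 0 in both). Of 10 B cell genes, 6 of 7 tested fell and 1 rose in ND-646 cultures (148 to 173 CPM in ND-646 and 116 to 132 CPM in vehicle libraries, with Ighm at 162 ± 11.2 and 115 ± 7.11 CPM) and 6 of 6 tested fell in tumour (59.2 to 75.7 CPM in tumour and 809 to 843 CPM in spleen libraries). The 17 CD8 T cell identity genes summed to 5627 to 5755 CPM in ND-646 and 6065 to 6406 CPM in vehicle libraries (exact two-sided permutation p = 0.0286, the smallest possible), and to 4545 to 6066 CPM in tumour and 9755 to 9835 CPM in spleen libraries, where 17 of 17 were lower in tumour (exact two-sided permutation p = 0.1). Since the cells in a library are mixed, fewer cells of a type and less RNA per cell cannot be told apart.

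Promoter windows of 300 bases, from 250 before to 50 after a RefSeq start site (GRCm38.p6), matched 31 of the 35 symbols, all but Gpat4, Agpat5, Pcyt2 and Ptdss1. The windows below are those of the genes on which the results turn. They are Pcyt1a and Chka, whose transcripts were higher in tumour, Cds2 and Taz, which were higher in ND-646 cultures and lower in tumour, and Lpcat1, the one member that passed the test of a change beyond 1.5-fold in ND-646 cultures. The motifs searched on both strands, where N is any base, were CACGTG (an E-box), TGATGNAA (an ATF4 element), TCACNCCAC (a sterol element) and CCAAT (an NF-Y box, ATTGG on the other strand). Capitals mark the matches, which share no bases in these windows. All are on the plus strand and run 5′ to 3′.
Pcyt1a, chr16:32430671-32430970: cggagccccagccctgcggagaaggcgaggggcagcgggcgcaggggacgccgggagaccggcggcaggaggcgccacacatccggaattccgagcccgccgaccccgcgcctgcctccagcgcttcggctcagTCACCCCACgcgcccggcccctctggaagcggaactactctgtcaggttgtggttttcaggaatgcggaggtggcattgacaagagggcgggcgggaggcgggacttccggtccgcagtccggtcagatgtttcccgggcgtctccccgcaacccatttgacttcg
Chka, chr19:3851523-3851822: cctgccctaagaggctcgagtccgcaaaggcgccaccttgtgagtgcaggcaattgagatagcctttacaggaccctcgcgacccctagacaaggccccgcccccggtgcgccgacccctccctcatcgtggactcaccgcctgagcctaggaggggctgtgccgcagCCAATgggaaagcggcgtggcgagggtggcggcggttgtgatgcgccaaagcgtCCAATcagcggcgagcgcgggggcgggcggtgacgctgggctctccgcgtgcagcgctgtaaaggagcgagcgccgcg
Cds2, chr2:132262898-132263197: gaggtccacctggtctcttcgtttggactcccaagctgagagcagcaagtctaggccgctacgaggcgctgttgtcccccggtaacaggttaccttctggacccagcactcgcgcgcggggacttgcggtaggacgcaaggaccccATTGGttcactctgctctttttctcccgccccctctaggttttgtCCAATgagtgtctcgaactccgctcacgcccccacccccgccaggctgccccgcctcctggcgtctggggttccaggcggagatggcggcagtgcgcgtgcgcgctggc
Taz, chrX:74282468-74282767: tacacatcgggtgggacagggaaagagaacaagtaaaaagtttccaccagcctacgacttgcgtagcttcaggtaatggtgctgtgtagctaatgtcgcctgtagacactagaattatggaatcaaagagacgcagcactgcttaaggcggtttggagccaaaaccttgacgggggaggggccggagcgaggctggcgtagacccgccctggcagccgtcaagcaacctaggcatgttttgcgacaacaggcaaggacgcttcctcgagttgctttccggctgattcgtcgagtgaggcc
Lpcat1, chr13:73466981-73467280: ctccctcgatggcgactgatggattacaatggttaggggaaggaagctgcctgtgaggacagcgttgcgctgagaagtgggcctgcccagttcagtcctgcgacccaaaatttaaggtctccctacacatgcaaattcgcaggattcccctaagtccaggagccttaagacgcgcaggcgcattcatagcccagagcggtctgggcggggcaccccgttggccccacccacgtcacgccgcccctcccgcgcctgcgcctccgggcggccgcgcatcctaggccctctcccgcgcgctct
The Pcyt1a window held TCACCCCAC at 116 bases before the start site. Pcyt1a was the one member of the 31 with that motif, in 2 overlapping windows of 45 for these members (4.44%), against 1.24% of all 32851 windows. Chka held CCAAT at 82 and 28 bases before its start site. In the window shown, Cds2 held the motif at 104 bases before on the minus strand and at 59 bases before on the plus strand. Another Cds2 window, not shown, held CCAAT at 190, 95 and 71 bases before its own start site. Taz and Lpcat1 held none of the letters searched. CCAAT was in 35.6% of the member windows and 37.4% of all windows, CACGTG in 6.67% and 7.15% (Crls1, Lpin2 and Lpin3), and TGATGNAA in 4.44% and 3.97% (Gpam and Lpin2). A match is a description of these letters, not of a bound site.

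With ND-646 against vehicle, the question was how the cultures responded when acetyl-CoA carboxylase was inhibited. Of the enzymes that put acyl chains back onto lysophospholipids, 5 of 8 tested rose in ND-646 cultures, among them Lpcat1 (1.66-fold), while Lpcat4, the most abundant per length, fell and Lpgat1 and Mboat2 did not pass the test. Of all genes tested, 29.8% rose and 26.5% fell. Of 8 enzymes of the Kennedy pathway and of phosphatidylethanolamine methylation, 4 fell slightly, and Cept1, at the last step of the pathway, rose 1.44-fold. Cds2, in ND-646 libraries the highest of all members per length of exon, rose 1.32-fold. Of the 33 members that passed the filter on low counts, 14 rose, 8 fell and 11 did not pass the test (edgeR quasi-likelihood test, Benjamini-Hochberg adjusted over all genes at 0.05). The 22 that changed were 66.7% of those tested, against 56.3% of all 14251 genes tested, and the median log2 fold change was 0.04 for the members and 0.01 for all genes. When a change beyond 1.5-fold was tested, 1 member passed as higher and 0 as lower (with limma-voom 0 and 0, and 8 were lower at an unadjusted p under 0.05 in the plain test), against 8.36% of all genes (3.43% higher and 4.93% lower). Scaling by the summed CD8 identity genes raised the median of all genes by 0.13 on the log2 scale and gave 21 members higher and 0 lower, and 6395 of all genes higher and 2327 lower. A member's call as lower thus holds relative to all genes and not relative to those genes. The log2 fold changes of 7 members stayed below 0 with that scaling, without passing the test.

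**Figure D1:**
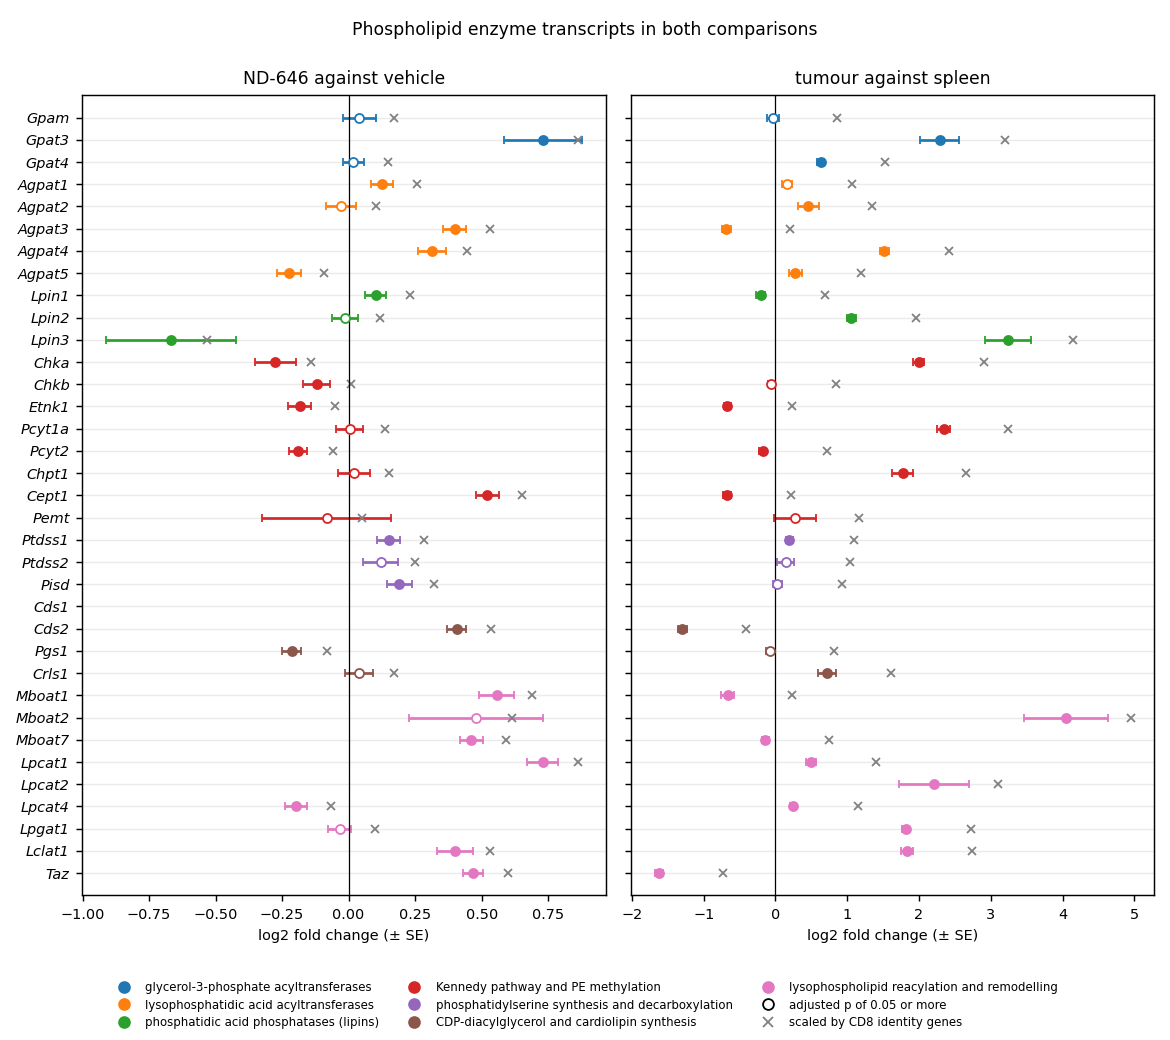
Log2 fold changes ± SE of the 35 transcripts by role (rows), ND-646 against vehicle on the left and tumour against spleen on the right, with separate x scales. Filled points passed the test and open points did not, grey crosses show the value when libraries were scaled by CD8 identity genes, and a row with no point was not tested. In ND-646 cultures the values lie within 1 log2 unit of 0, and in tumour they run from -1.63 (Taz) to 4.05 (Mboat2).

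The first acyl chain is added by Gpam in mitochondria and by Gpat3 and Gpat4 in the endoplasmic reticulum. Gpat4 was the most abundant of these per length and did not pass the test, with 83.8, 83.6, 78.0 and 82.0 CPM in ND-646 libraries and 79.9, 82.9, 81.6 and 78.8 CPM in vehicle libraries. The ranges of the groups overlapped. Gpat3 rose 1.66-fold at a low level, with 3.27 ± 0.378 CPM in ND-646 and 1.97 ± 0.213 CPM in vehicle libraries (SD, n = 4 each, log2 fold change 0.73 ± 0.15 SE, adjusted p = 0.000338), and its groups did not overlap. Gpam had 24.0 ± 1.65 CPM in ND-646 and 23.4 ± 1.17 CPM in vehicle libraries (SD, n = 4 each), with a 95% interval of -0.08 to 0.16 for the log2 fold change.

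Among the acyltransferases that turn lysophosphatidic acid into phosphatidic acid, 3 of 5 rose and 1 fell, where 56.3% of all genes changed. Agpat3 rose 1.32-fold, with 163, 152, 154 and 157 CPM in ND-646 libraries and 119, 127, 109 and 119.7 CPM in vehicle libraries (log2 fold change 0.40 ± 0.04 SE, adjusted p = 3.36e-07). All 4 ND-646 libraries were above all 4 vehicle libraries, and these values are given although the gene did not pass the test beyond 1.5-fold, as are those of Cept1, Cds2, Taz, Mboat1 and Mboat7, a choice made after the values were seen. Agpat4 rose by 0.31 ± 0.05 on the log2 scale (35.2 ± 1.98 CPM in ND-646 and 28.3 ± 1.06 CPM in vehicle libraries). Agpat1, the most abundant of the family per length, had 77.0, 70.6, 70.8 and 72.6 CPM in ND-646 libraries and 63.7, 67.7, 66.5 and 68.6 CPM in vehicle libraries (log2 fold change 0.13 ± 0.04 SE, adjusted p = 0.0142). Its groups did not overlap, but the call was lost without ND-646 library 1 (adjusted p = 0.0849) or vehicle library 1 (adjusted p = 0.0602). Agpat5, a mitochondrial member, fell by 0.23 ± 0.05 on the log2 scale (42.0 ± 1.14 CPM in ND-646 and 49.1 ± 2.45 CPM in vehicle libraries), and Agpat2 stood at 22.3 ± 1.23 CPM in ND-646 and 22.7 ± 0.451 CPM in vehicle libraries without passing the test.

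Lpin1 was the main lipin, the family that makes diacylglycerol from phosphatidic acid, at 76.4 ± 1.21% of the family's summed CPM per kb of exon in ND-646 and 74.5 ± 0.485% in vehicle libraries (SD, n = 4 each). It had 136, 129, 135 and 146 CPM in ND-646 libraries and 129, 126, 131 and 125 CPM in vehicle libraries. The groups overlapped, and the call (log2 fold change 0.10 ± 0.04 SE, adjusted p = 0.0381) was lost in 6 of 8 fits that left out 1 library (ND-646 libraries 1, 3 and 4 and vehicle libraries 1, 2 and 4, adjusted p from 0.055 to 0.229) and with DESeq2 (adjusted p = 0.101). Lpin3 fell at a very low level, with 0.795 ± 0.192 CPM in ND-646 and 1.253 ± 0.327 CPM in vehicle libraries (19 to 30 counts in ND-646 and 24 to 49 counts in vehicle libraries), with overlapping groups. That call was lost without ND-646 library 1, ND-646 library 4 or vehicle library 2 (adjusted p of 0.0735, 0.0622 and 0.147). Lpin2 was at 50.7 ± 2.53 CPM in ND-646 and 51.2 ± 2.97 CPM in vehicle libraries and did not pass the test.

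In the Kennedy pathway, choline is phosphorylated by Chka and Chkb and ethanolamine by Etnk1, Pcyt1a and Pcyt2 make the CDP forms, and Chpt1 and Cept1 transfer them to diacylglycerol. Cept1, which makes both phosphatidylcholine and phosphatidylethanolamine, had 102, 91.5, 92.1 and 97.9 CPM in ND-646 libraries and 64.2, 68.8, 65.6 and 68.4 CPM in vehicle libraries. The lowest ND-646 library was well above the highest vehicle library (log2 fold change 0.52 ± 0.04 SE, adjusted p = 1.04e-08). The exons of Cept1 share 771 bases with the antisense gene Dennd2d, which moved the same way (286 ± 2.04 CPM in ND-646 and 221 ± 2.32 CPM in vehicle libraries), and whether strand was used in counting is not given in the sources used here. Pcyt2, which had the highest level per length of all members in vehicle libraries, fell to 122, 127, 125 and 122 CPM in ND-646 libraries, against 140.1, 143, 140.5 and 142 CPM in vehicle libraries. These groups did not overlap (log2 fold change -0.19 ± 0.03 SE, adjusted p = 0.000105). Chka fell by 0.28 ± 0.08 on the log2 scale (17.6 ± 2.00 CPM in ND-646 and 21.2 ± 1.39 CPM in vehicle libraries) and Etnk1 fell by 0.18 ± 0.04 (174 ± 11.3 CPM in ND-646 and 198 ± 2.83 CPM in vehicle libraries). Chkb fell by 0.12 ± 0.05 on the log2 scale (adjusted p = 0.0465), a call that was lost in 6 of 8 fits without 1 library (all but those without ND-646 library 4 or vehicle library 2, adjusted p from 0.0541 to 0.148), and its exons share 1552 bases with the readthrough gene Gm44502 on the same strand. Pcyt1a, the rate-limiting step for phosphatidylcholine, had 35.3, 41.1, 38.4 and 37.8 CPM in ND-646 libraries and 37.4, 37.5, 37.7 and 39.6 CPM in vehicle libraries, with overlapping groups and a 95% interval of -0.09 to 0.10 for its log2 fold change. Chpt1 (17.7 ± 0.603 CPM in ND-646 and 17.4 ± 0.613 CPM in vehicle libraries) and Pemt, the liver enzyme that methylates phosphatidylethanolamine (0.965 ± 0.198 CPM in ND-646 and 1.01 ± 0.257 CPM in vehicle libraries), did not pass the test either. As a share of the summed CPM per kb of exon of these enzymes, Pemt included, Cept1 made up 33.2 ± 1.67% in ND-646 and 23.7 ± 0.611% in vehicle libraries. Pcyt2 made up 30.8 ± 0.719% in ND-646 and 36.1 ± 0.209% in vehicle libraries.

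Phosphatidylserine is made by base exchange in Ptdss1 and Ptdss2 and is turned into phosphatidylethanolamine in mitochondria by Pisd. Ptdss1, the most abundant of these per length, had 63.8, 63.2, 62.8 and 57.3 CPM in ND-646 libraries and 57.4, 56.0, 53.7 and 55.5 CPM in vehicle libraries. The groups overlapped through ND-646 library 4, which was lower than the other ND-646 libraries (log2 fold change 0.15 ± 0.04 SE, adjusted p = 0.00646). Pisd rose by 0.19 ± 0.05 on the log2 scale (44.2 ± 0.919 CPM in ND-646 and 38.7 ± 2.27 CPM in vehicle libraries). It has a near-identical copy, Pisd-ps1, with 95.3% identity over 743 bases, which was at 54.7 ± 3.65 CPM in ND-646 and 41.8 ± 0.908 CPM in vehicle libraries, so reads may have been split between them. Ptdss2 (22.8 ± 2.18 CPM in ND-646 and 21.03 ± 0.574 CPM in vehicle libraries) did not pass the test (adjusted p = 0.134), but passed without ND-646 library 3 (adjusted p = 0.0406).

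Cds1 and Cds2 make CDP-diacylglycerol, the precursor of phosphatidylinositol, and nearly all of their transcripts were of Cds2. Cds1 had 1 count in 1 ND-646 library and 0 in the other ND-646 and all vehicle libraries. Cds2 had 314, 342, 330.0 and 331 CPM in ND-646 libraries and 254, 245, 248 and 248 CPM in vehicle libraries (log2 fold change 0.41 ± 0.04 SE, adjusted p = 2.56e-08). The groups were far apart relative to their spread, and per length Cds2 stood at 36.1 CPM per kb of exon in ND-646 and 27.3 CPM per kb in vehicle libraries. Pgs1, which makes the phosphatidylglycerol precursor of cardiolipin, fell by 0.21 ± 0.04 on the log2 scale (69.6 ± 0.819 CPM in ND-646 and 80.7 ± 1.48 CPM in vehicle libraries). The cardiolipin synthase Crls1 was at 25.5 ± 0.726 CPM in ND-646 and 24.8 ± 0.919 CPM in vehicle libraries without passing the test.

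Among the remodelling enzymes, Lpcat1, which puts saturated acyl chains onto lysophosphatidylcholine and is best known from lung surfactant, had 32.7, 38.2, 34.9 and 33.8 CPM in ND-646 libraries and 20.6, 20.02, 21.4 and 22.3 CPM in vehicle libraries. All ND-646 libraries were above all vehicle libraries (log2 fold change 0.73 ± 0.06 SE, adjusted p = 7.34e-09, and 0.0354 for a change beyond 1.5-fold). The call beyond 1.5-fold was lost with DESeq2 size factors, with limma-voom, and without ND-646 libraries 2 or 3 or vehicle libraries 1, 2 or 3, while the plain test passed in each of these. Taz is tafazzin, the mitochondrial transacylase that remodels cardiolipin, and not the Hippo pathway coactivator of that name. It had 95.7, 104, 99.5 and 99.0 CPM in ND-646 libraries and 73.8, 71.7, 69.8 and 72.9 CPM in vehicle libraries, with no overlap (log2 fold change 0.47 ± 0.04 SE, adjusted p = 1.04e-08). Mboat7, which puts arachidonic acid onto lysophosphatidylinositol, had 79.3, 86.4, 85.5 and 81.4 CPM in ND-646 libraries and 57.1, 60.3, 61.0 and 63.3 CPM in vehicle libraries, again with no overlap (log2 fold change 0.46 ± 0.04 SE). Mboat1, an acyltransferase for lysophosphatidylserine and lysophosphatidylethanolamine, had 16.8, 16.8, 15.2 and 15.1 CPM in ND-646 libraries and 10.5, 10.9, 10.9 and 11.1 CPM in vehicle libraries (log2 fold change 0.56 ± 0.07 SE). Its lowest ND-646 library exceeded its highest vehicle library. Lclat1, a lysocardiolipin acyltransferase, rose by 0.40 ± 0.07 on the log2 scale (27.7 ± 2.39 CPM in ND-646 and 20.98 ± 1.07 CPM in vehicle libraries). Lpcat4, the most abundant of the group per length, fell to 54.6, 55.2, 56.3 and 58.3 CPM in ND-646 libraries, against 62.8, 66.8, 61.8 and 66.0 CPM in vehicle libraries, without overlap (log2 fold change -0.20 ± 0.04 SE, adjusted p = 0.000462). Lpgat1 (69.2 ± 2.70 CPM in ND-646 and 70.8 ± 3.14 CPM in vehicle libraries) and Mboat2 (1.70 ± 0.535 CPM in ND-646 and 1.22 ± 0.363 CPM in vehicle libraries) did not pass the test, though Mboat2 (adjusted p = 0.118) passed without ND-646 library 3 (adjusted p = 0.0288). Lpcat2, which makes platelet-activating factor in myeloid cells, was too low to be tested, with 3, 6, 2 and 6 counts in ND-646 libraries and 1, 0, 0 and 1 counts in vehicle libraries.

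**Figure D2:**
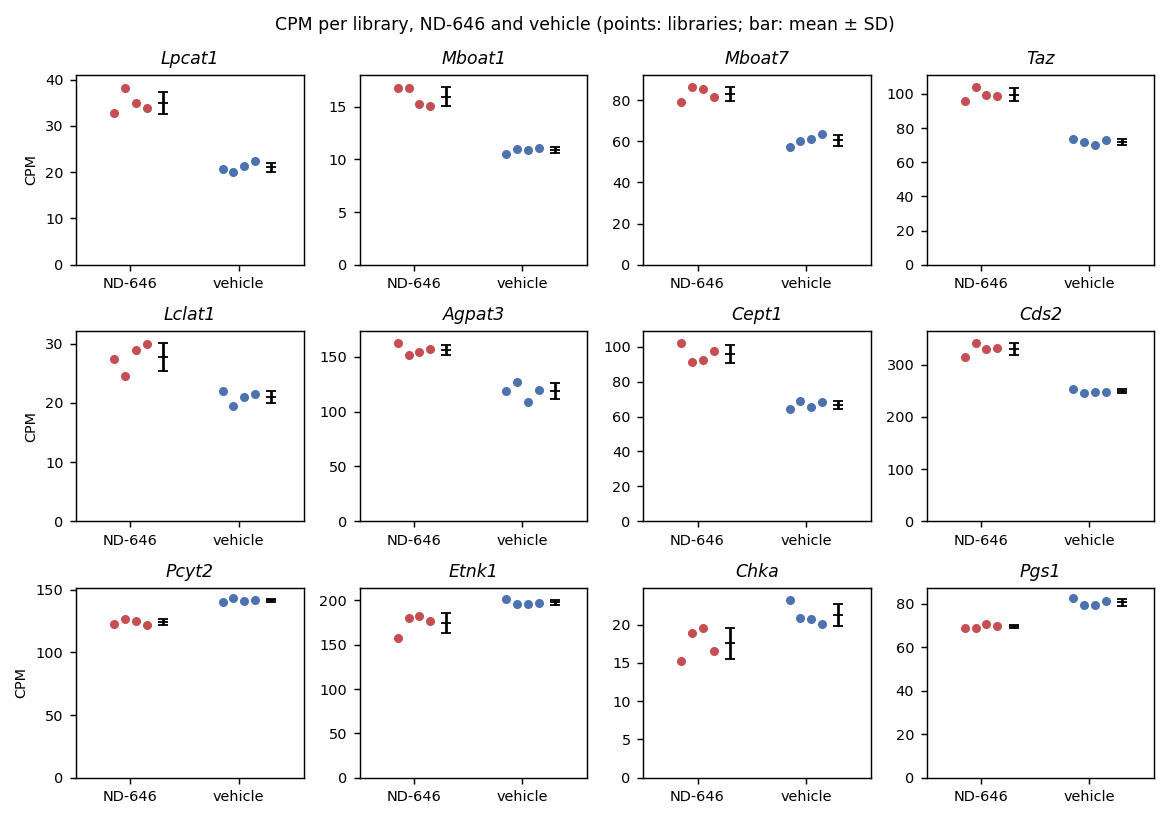
CPM of 12 transcripts in each ND-646 and vehicle library (points, in order of replicate number), with mean ± SD beside them and y axes starting at 0. Lpcat1, Mboat1, Mboat7, Taz, Lclat1, Agpat3, Cept1 and Cds2 lie higher in all ND-646 than in all vehicle libraries, and Pcyt2, Etnk1, Chka and Pgs1 lie lower. These 12 were chosen after the values were seen, and other members, such as Gpat4, Lpin1 and Ptdss1, had groups that overlapped. The share of all genes whose groups do not overlap was not computed.

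The cell cycle, macrophage and CD8 identity sums given above moved between the same ND-646 and vehicle libraries, and their part in these changes was not tested. Of 50 other genes of phospholipid transport, breakdown and ether lipid synthesis, 47 were tested, of which 12 rose and 13 fell (24 and 3 with CD8 identity scaling). Without that scaling, 53.2% of the 47 changed, against 56.3% of all genes tested. Those with the smallest p were Pnpla8, a mitochondrial phospholipase (41.6 ± 2.78 CPM in ND-646 and 25.2 ± 0.833 CPM in vehicle libraries, log2 fold change 0.72 ± 0.05 SE), and the choline transporter Slc44a1 (19.3 ± 0.979 CPM in ND-646 and 11.8 ± 0.624 CPM in vehicle libraries, log2 fold change 0.72 ± 0.07 SE) among those that rose. Among those that fell they were the phosphatidylinositol transfer proteins Pitpna (125 ± 6.70 CPM in ND-646 and 157 ± 1.40 CPM in vehicle libraries) and Pitpnc1 (87.6 ± 4.27 CPM in ND-646 and 102 ± 2.37 CPM in vehicle libraries).

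The second comparison set CD8+ T cells of the tumour against those of the spleen. In the choline branch of the Kennedy pathway, Chka rose 3.98-fold, Pcyt1a 5.07-fold and Chpt1 3.41-fold in tumour. The isoenzymes of Chpt1 and Chka that were more abundant per length did not pass the test as higher. Cept1 fell by 0.68 on the log2 scale, with 10.7 CPM per kb of exon in tumour and 17.1 CPM per kb in spleen, where Chpt1 had 2.31 CPM per kb in tumour and 0.676 CPM per kb in spleen. Chkb did not pass the test, with 24.3 CPM per kb in tumour and 25.4 CPM per kb in spleen, where Chka had 5.82 CPM per kb in tumour and 1.46 CPM per kb in spleen. Cds2 fell to 0.407 and Taz to 0.324 of their spleen levels, while Crls1 rose 1.65-fold and Lclat1 3.55-fold. Within families, Agpat4 and Lpin2 rose while Agpat3 and Lpin1 fell. Of the 34 members tested, 18 rose, 9 fell and 7 did not pass the test. The 27 that changed were 79.4% of those tested, against 83.8% of all 15042 genes tested (43.6% higher and 40.2% lower), so most genes of any kind passed this test. The median log2 fold change was 0.26 for the members and 0.03 for all genes. Beyond 1.5-fold, 11 members were higher and 5 lower (Agpat3, Etnk1, Cept1, Cds2 and Taz), against 56.1% of all genes (31.4% higher and 24.7% lower). Scaling by the CD8 identity genes, which were themselves lower in tumour, raised the median of all genes by 0.90 on the log2 scale and gave 28 members higher and 2 lower (26 and 0 beyond 1.5-fold). Without tumour library 1, 19 rose and 8 fell, and 12 were higher and 3 lower beyond 1.5-fold. The 5 lower members also became 3 without tumour library 2, and 2 without tumour library 3, spleen library 1 or spleen library 3, and with DESeq2 size factors, limma-voom or no count filter.

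**Figure D3:**
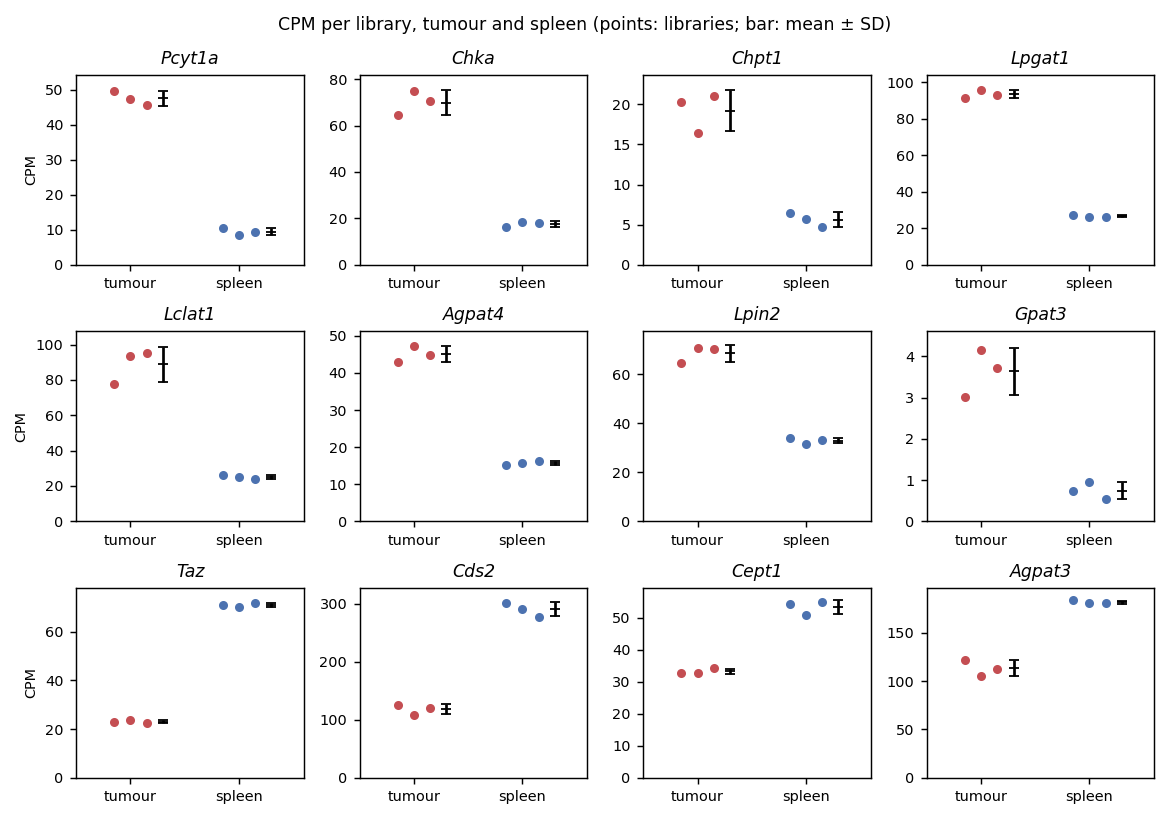
CPM of 12 transcripts in each tumour and spleen library (points, in order of replicate number), with mean ± SD beside them and y axes starting at 0. Pcyt1a, Chka, Chpt1, Lpgat1, Lclat1, Agpat4, Lpin2 and Gpat3 lie higher in all tumour than in all spleen libraries, and Taz, Cds2, Cept1 and Agpat3 lie lower. These 12 were chosen after the values were seen, from the 16 members that passed the test beyond 1.5-fold. Other members, such as Gpam, Pisd and Pgs1, had groups that overlapped. The share of all genes whose tumour and spleen groups do not overlap was not computed.

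Pcyt1a had 49.7, 47.3 and 45.6 CPM in tumour libraries and 10.4, 8.44 and 9.23 CPM in spleen libraries. Every tumour library was far above every spleen library (log2 fold change 2.34 ± 0.09 SE, adjusted p = 1.35e-08), and the value was 2.35 without tumour library 1. Chka had 64.5, 74.9 and 70.5 CPM in tumour libraries and 16.3, 18.4 and 18.1 CPM in spleen libraries, also far apart (log2 fold change 1.99 ± 0.08 SE, adjusted p = 1.66e-08). Chpt1 had 20.3, 16.4 and 21.03 CPM in tumour libraries and 6.51, 5.64 and 4.74 CPM in spleen libraries (log2 fold change 1.77 ± 0.15 SE). The groups did not overlap, but stretches of Chpt1 match the copies Gm13131, Gm48632 and Mgea5 at 95% identity or more and 660 bases of its exons lie antisense to Sycp3. Of these, Gm13131 was at 0 in both groups, Gm48632 at 0.349 ± 0.141 CPM in tumour and 0.115 ± 0.0259 CPM in spleen libraries, and Sycp3 at 0.114 ± 0.0546 CPM in tumour and 0.0499 ± 0.0499 CPM in spleen libraries, and the level of Mgea5 was not analysed here. The second choline kinase Chkb, the most abundant member of the pathway per length in both groups, had 74.9, 75.1 and 73.1 CPM in tumour libraries and 76.2, 79.2 and 77.6 CPM in spleen libraries, and did not pass the test although the groups did not overlap. Etnk1 fell to 160, 168 and 159 CPM in tumour libraries, against 273, 247 and 255 CPM in spleen libraries (log2 fold change -0.67 ± 0.05 SE). Cept1 fell to 32.8, 32.8 and 34.2 CPM in tumour libraries, against 54.2, 50.8 and 54.7 CPM in spleen libraries (log2 fold change -0.68 ± 0.06 SE, adjusted p = 2.54e-06), and Dennd2d on the other strand moved with it (50.3 ± 6.70 CPM in tumour and 305 ± 5.09 CPM in spleen libraries). Both lie below the whole spleen range, yet with CD8 identity scaling their log2 fold changes were 0.23 and 0.22. Pcyt2 fell by 0.18 ± 0.05 on the log2 scale (77.3 ± 2.82 CPM in tumour and 87.4 ± 2.62 CPM in spleen libraries), a call lost with DESeq2 (adjusted p = 0.122) and without spleen library 2 or 3 or tumour library 2 (adjusted p from 0.0527 to 0.0676). Pemt was at 1.95 ± 0.346 CPM in tumour and 1.62 ± 0.506 CPM in spleen libraries.

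Cds2 ranked first of the members per length in spleen, at 31.8 CPM per kb of exon, and 11th in tumour, at 12.9 CPM per kb. It had 126, 108.5 and 119.6 CPM in tumour libraries and 302, 292 and 278 CPM in spleen libraries. All tumour libraries were far below all spleen libraries (log2 fold change -1.30 ± 0.07 SE, adjusted p = 7.26e-08). Cds1 did not pass the filter, with 2, 6 and 2 counts in tumour libraries and 0, 0 and 1 counts in spleen libraries. Taz had 22.8, 23.7 and 22.5 CPM in tumour libraries and 71.0, 70.2 and 71.96 CPM in spleen libraries, the largest fall of any member (log2 fold change -1.63 ± 0.05 SE, adjusted p = 6.68e-09). Cds2 and Taz were the members that stayed lower when libraries were scaled by the CD8 identity genes (log2 fold changes of -0.41 and -0.73, adjusted p of 0.0032 and 0.000362). Crls1 rose to 15.4 ± 1.16 CPM in tumour, against 9.35 ± 1.38 CPM in spleen libraries (SD, n = 3 each, log2 fold change 0.72 ± 0.13 SE). Pgs1 was at 72.4 ± 2.69 CPM in tumour and 76.6 ± 2.99 CPM in spleen libraries, with a 95% interval of -0.18 to 0.02 for its log2 fold change.

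Lclat1 had 77.5, 93.7 and 95.4 CPM in tumour libraries and 26.2, 24.8 and 24.0 CPM in spleen libraries (log2 fold change 1.83 ± 0.09 SE, adjusted p = 5.27e-08). Lpgat1, an acyltransferase first described for lysophosphatidylglycerol, had 91.2, 95.7 and 93.0 CPM in tumour libraries and 27.2, 26.1 and 26.2 CPM in spleen libraries (log2 fold change 1.82 ± 0.05 SE, adjusted p = 3.46e-09). Both were far higher in every tumour library than in any spleen library. As shares of the remodelling group's summed CPM per kb of exon, Lclat1 made up 22.6 ± 1.77% in tumour and 8.08 ± 0.261% in spleen libraries, and Taz 5.34 ± 0.204% in tumour and 20.97 ± 0.391% in spleen libraries (SD, n = 3 each). All 9 members of this group passed the test, 6 higher and 3 lower, as did 83.8% of all genes. Mboat2 (24, 48 and 49 counts in tumour libraries and 4, 0 and 3 counts in spleen libraries, log2 fold change 4.05 ± 0.59 SE) and Lpcat2 (25.0, 30.0 and 20.2 estimated counts in tumour libraries and 8, 1.00 and 7 in spleen libraries, log2 fold change 2.21 ± 0.49 SE) rose at levels of at most 2.46 CPM. Lpcat1 rose by 0.50 ± 0.07 on the log2 scale (35.8 ± 2.098 CPM in tumour and 25.4 ± 1.08 CPM in spleen libraries). Lpcat4, the most abundant of the group per length, had 76.3, 76.2 and 76.1 CPM in tumour libraries and 65.6, 63.9 and 63.1 CPM in spleen libraries (log2 fold change 0.25 ± 0.04 SE). Mboat1 fell by 0.67 ± 0.09 on the log2 scale (12.2 ± 0.857 CPM in tumour and 19.5 ± 1.02 CPM in spleen libraries). Mboat7 was slightly lower (58.3 ± 2.58 CPM in tumour and 64.4 ± 0.410 CPM in spleen libraries, adjusted p = 0.027), a call lost in 5 of 6 fits without 1 library (all but that without tumour library 3, adjusted p from 0.0759 to 0.177) and with DESeq2 (adjusted p = 0.306).

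Gpat4, the most abundant of the first acyltransferases per length, rose to 104, 110.0 and 106 CPM in tumour libraries, against 69.2, 68.3 and 68.9 CPM in spleen libraries (log2 fold change 0.63 ± 0.05 SE, adjusted p = 9.56e-07). Gpat3 had 3.01, 4.16 and 3.73 CPM in tumour libraries and 0.723, 0.949 and 0.549 CPM in spleen libraries (log2 fold change 2.29 ± 0.27 SE). Neither pair of groups overlapped, while Gpam was at 16.4 ± 0.795 CPM in tumour and 16.9 ± 0.525 CPM in spleen libraries. Agpat3 had 122, 105 and 113 CPM in tumour libraries and 184, 181 and 181 CPM in spleen libraries (log2 fold change -0.68 ± 0.06 SE, adjusted p = 2.73e-06). Agpat4 had 43.0, 47.3 and 44.9 CPM in tumour libraries and 15.3, 15.6 and 16.3 CPM in spleen libraries (log2 fold change 1.52 ± 0.07 SE, adjusted p = 3.69e-08). The make-up of the family differed accordingly, with Agpat3 at 21.2 ± 2.06% of its CPM per kb in tumour and 38.0 ± 0.402% in spleen libraries, and Agpat4 at 24.2 ± 0.723% in tumour and 9.48 ± 0.415% in spleen libraries. Agpat1, first of all members per length in tumour, had 78.4, 92.2 and 78.9 CPM in tumour libraries and 72.5, 75.7 and 75.1 CPM in spleen libraries. The groups did not overlap, and the difference missed the threshold (adjusted p = 0.0516) but passed it without tumour library 1 (adjusted p = 0.00498) or tumour library 3 (adjusted p = 0.0332). Agpat2 rose by 0.46 ± 0.15 on the log2 scale (15.6 ± 1.07 CPM in tumour and 11.4 ± 2.33 CPM in spleen libraries) and Agpat5 rose by 0.28 ± 0.10 (27.8 ± 3.50 CPM in tumour and 22.9 ± 0.752 CPM in spleen libraries). The Agpat5 call was lost without spleen library 2 (adjusted p = 0.0595).

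Among the lipins, Lpin2 had 64.6, 70.7 and 70.5 CPM in tumour libraries and 33.8, 31.8 and 33.2 CPM in spleen libraries (log2 fold change 1.06 ± 0.06 SE, adjusted p = 1.44e-07). Lpin3 had 3.81, 5.54 and 3.39 CPM in tumour libraries and 0.289, 0.549 and 0.499 CPM (6 to 11 counts) in spleen libraries. Lpin1 had 64.5, 58.7 and 60.8 CPM in tumour libraries and 73.2, 66.7 and 72.4 CPM in spleen libraries. Lpin2 and Lpin3 lay above the whole spleen range and Lpin1 below it (log2 fold change -0.21 ± 0.06 SE, adjusted p = 0.0086), but the Lpin1 call was lost with DESeq2 (adjusted p = 0.0666) and without spleen library 1 or 3 (adjusted p of 0.072 and 0.066). Lpin1 made up 48.5 ± 2.94% of the family's CPM per kb in tumour and 72.2 ± 0.614% in spleen libraries, and Lpin2 42.8 ± 1.91% in tumour and 26.6 ± 0.337% in spleen libraries. The phosphatidylserine enzymes differed little. Ptdss1 rose by 0.19 ± 0.05 on the log2 scale, with 60.0, 57.7 and 59.2 CPM in tumour libraries and 53.6, 50.9 and 50.4 CPM in spleen libraries, and Ptdss2 (12.1 ± 0.455 CPM in tumour and 11.0 ± 1.30 CPM in spleen libraries) and Pisd (37.4 ± 1.95 CPM in tumour and 36.8 ± 1.01 CPM in spleen libraries) did not pass the test. The copy Pisd-ps1 was at 15.5 ± 0.597 CPM in tumour and 48.2 ± 0.336 CPM in spleen libraries.

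**Figure D4:**
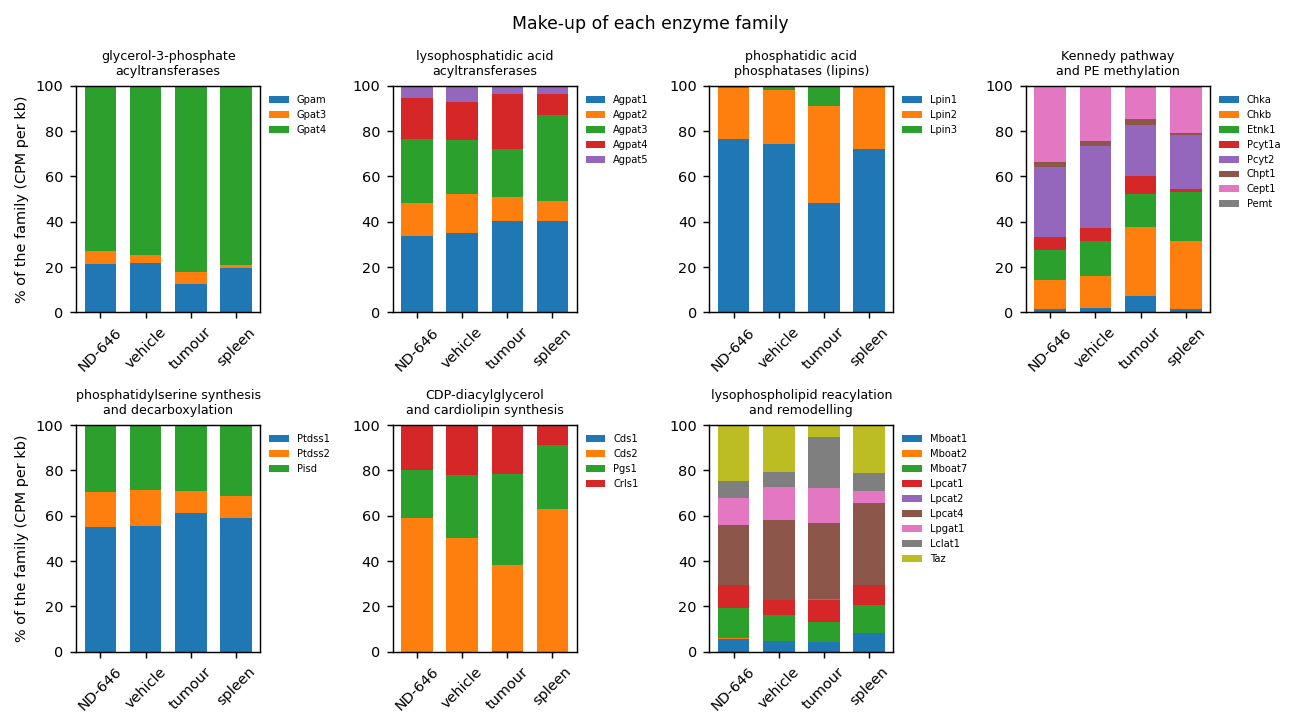
Make-up of each enzyme family as a percentage of its summed CPM per kb of exon (mean of each group's libraries, stacked bars), for ND-646, vehicle, tumour and spleen. Lpin2 and Agpat4 take a larger share of their families in tumour than in spleen, and in the remodelling group Lclat1 is larger and Taz smaller in tumour.

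The tumour libraries held the fibroblast, macrophage and cell cycle transcripts given above at many times their level in spleen libraries, and the part of those cells in the levels of these enzymes was not tested. Of the 50 other phospholipid genes, 48 were tested, of which 23 rose and 16 fell (38 and 4 with CD8 identity scaling). Without that scaling, 81.25% of the 48 changed, against 83.8% of all genes tested. Plpp3, a lipid phosphate phosphatase, was at 14.1 ± 1.64 CPM in tumour and 0.0166 ± 0.0288 CPM in spleen libraries, and Prelid3b, of a family of mitochondrial lipid transfer proteins, was at 56.8 ± 1.19 CPM in tumour and 26.8 ± 0.747 CPM in spleen libraries. The lysophospholipase Pnpla7 (19.3 ± 0.884 CPM in tumour and 119 ± 3.66 CPM in spleen libraries) and the choline transporter-like gene Slc44a2 (200 ± 14.7 CPM in tumour and 574 ± 10.2 CPM in spleen libraries) fell. These 4 had the smallest p in each direction.

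The comparisons share no library, so the calls of the 33 members tested in both can be set side by side. Agpat3, Lpin1, Cept1, Cds2, Mboat1, Mboat7 and Taz were higher in ND-646 cultures and lower in tumour, which is 21.2% of the 33 members, against 14.9% of the 13261 genes tested in both. With CD8 identity scaling, Cds2 and Taz were the ones of these still lower in tumour. The Lpin1 calls in both comparisons and the Mboat7 call in tumour were lost with DESeq2 and in several fits without 1 library. The share of 21.2% depends on these calls. Gpat3, Agpat4, Ptdss1, Lpcat1 and Lclat1 were higher in both (15.2%, against 11.5% of all genes). Agpat5, Lpin3, Chka and Lpcat4 were lower in ND-646 cultures and higher in tumour (12.1%, against 14.6%), and Etnk1 and Pcyt2 were lower in both (6.06%, against 8.29%). Under CD8 identity scaling 0 members passed the test as lower in ND-646 cultures. Agpat5, Lpin3, Chka, Lpcat4, Etnk1 and Pcyt2 still lay below 0 there, with log2 fold changes from -0.53 (Lpin3) to -0.05 (Etnk1). In tumour, Etnk1 then came to 0.23 and Pcyt2 to 0.72 on the log2 scale. Pcyt1a, Gpat4, Agpat2, Lpin2, Chpt1, Crls1, Mboat2 and Lpgat1 were higher in tumour and did not pass the test in ND-646 cultures (24.2%, against 14.1%). Lower in tumour without passing in ND-646 cultures were 0 members, against 19.5% of all genes. Agpat1 and Pisd were called higher (6.06%, against 4.70%) and Chkb and Pgs1 lower (6.06%, against 3.54%) in ND-646 cultures only. In tumour, Agpat1 narrowly missed the threshold and passed as higher with the DESeq2 Wald test (adjusted p = 0.0159). The ND-646 calls of Agpat1 and Chkb were lost in some fits without 1 library. Gpam, Pemt and Ptdss2 passed in neither (9.09%, against 8.94%).

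**Figure D5:**
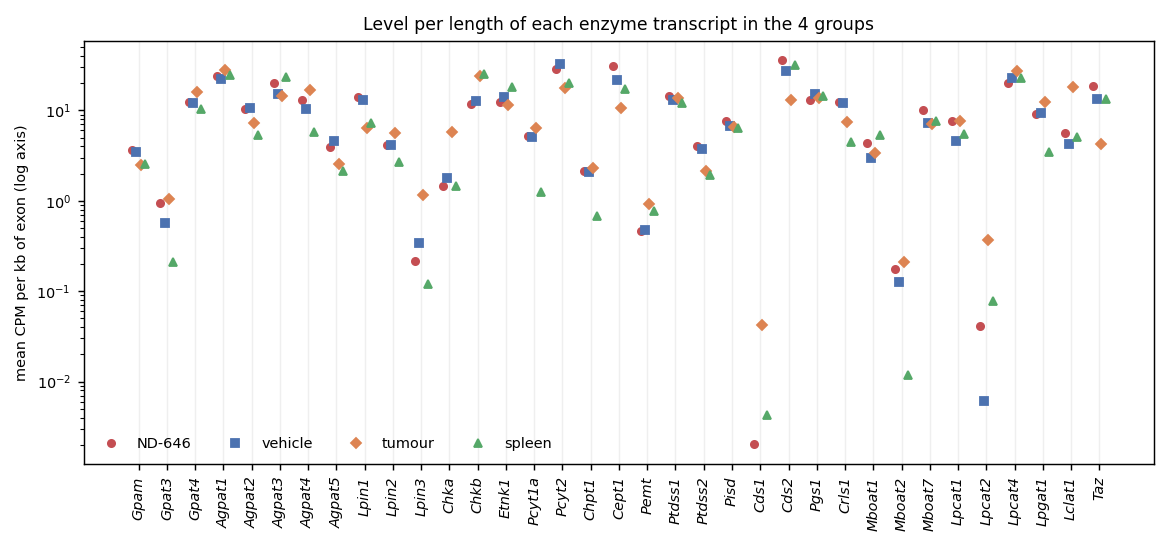
Mean level of each transcript per length (y axis, CPM per kb of exon, log scale) in ND-646, vehicle, tumour and spleen libraries, where each table was scaled on its own, so that levels compare within ND-646 and vehicle and within tumour and spleen. Cds1 in vehicle was at 0 and is not drawn. Cds2 is highest, at 36.1 CPM per kb in ND-646 libraries, and Cds1, Lpcat2, Mboat2 and Pemt lie below 1 in every group.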

How the data were processed

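Per the labels' protocols, directional libraries of poly(A) RNA gave read pairs of 150 bases. The authors deposited 1 table of estimated counts per experiment. STAR, Salmon and DESeq2 are named in the submitters' processing notes. The sources used here give no genome build, annotation or use of strand. Of the deposited estimated counts, 9.16% and 9.15% were not whole (tolerance 1e-06), so they were rounded. All columns were matched to a sample by title. For each comparison alone, edgeR 4.0.16 under R 4.3.3 was run with filterByExpr, TMM scaling and its robust quasi-likelihood test, adjusted by Benjamini-Hochberg over all genes tested at 0.05. A second rule tested a change beyond 1.5-fold (glmTreat). SE was derived from the F statistic. The 95% intervals apply a normal multiplier to that SE, so they are narrower than intervals that allow for the few libraries. No pair of replicates agreed within sampling noise in a chi-square test of their counts. Levels per length are CPM per kb of the exon union in GENCODE M21 (GRCm38), which matched 53292 symbols, and near-identical copies were found with blastn 2.17.0+ at 95% identity over 200 bases.

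Replicate numbers did not pair the samples. The value of 1 marker gene is not reported here. The members and gene lists were chosen with earlier results of these data known, so the members and the other phospholipid genes were not tested as sets. The summed levels of 2 marker lists were compared between groups by an exact permutation test. Library values were given for members of at least 1 CPM that passed the test beyond 1.5-fold and for the most abundant member of each role, of the other phospholipid genes for the 2 with the smallest p in each direction, and members beyond these were chosen after their values were seen. Alternatives were the size factors of DESeq2 1.42.0, the DESeq2 Wald test, limma-voom (limma 3.58.1), no count filter, at least 10 counts in every library of 1 group, the replicate number as a block, scaling by CD8 identity genes, and leaving out each library. The procedure was tested on simulated counts in which few genes were changed, in random directions. That setting could not check the scaling where most genes differ, as in these comparisons. CPM are scaled to 1e+06. The marker lists not given elsewhere covered NK and gamma delta T cells (summed CPM of 328 to 344 in ND-646 and 314 to 339 in vehicle libraries, 298 to 366 in tumour and 146 to 162 in spleen libraries), CD4 and regulatory T cells (881 to 906 in ND-646 and 1298 to 1321 in vehicle libraries, mostly Il2ra, and 371 to 493 in tumour and 39.5 to 44.0 in spleen libraries), dendritic cells (58.5 to 71.5 in ND-646 and 67.5 to 75.5 in vehicle libraries, 337 to 421 in tumour and 16.1 to 27.0 in spleen libraries) and endothelial cells (44.1 to 50.3 in ND-646 and 58.4 to 65.2 in vehicle libraries, 103 to 115 in tumour and 215 to 220 in spleen libraries). In the same order, the most abundant genes in tumour libraries were Klrk1 (235 ± 39.0 CPM), Ctla4 (243 ± 58.9 CPM), Fscn1 (320 ± 49.0 CPM) and Eng (55.3 ± 8.00 CPM). Those in spleen libraries were Eomes (103 ± 3.15 CPM), Ikzf2 (29.0 ± 1.34 CPM), Itgax (11.4 ± 3.43 CPM) and Pecam1 (166 ± 5.47 CPM). Whether these sums came from the cell types named was not tested.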

Additional observations from a re-analysis of the deposited data

Results flagged for a closer look

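Of 69 groups of 4 libraries in which a transcript of a member was measured, 4 had 1 library far from the others by Dixon's ratio of its gap to the group's range. Chance gives about 1 in 20 such groups, and 4 of 69 is close to that. Ptdss1 was at 57.3 CPM in ND-646 library 4, against 62.8 to 63.8 CPM in the other ND-646 libraries (ratio 0.842). Etnk1 was at 202 CPM in vehicle library 1, against 196 to 196.8 CPM in the others (ratio 0.863). Pcyt1a was at 39.6 CPM in vehicle library 4, against 37.4 to 37.7 CPM in the others (ratio 0.856). Cds1 was at 0.0318 CPM, which is 1 count, in ND-646 library 1, against 0 in the others (ratio 1).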

How the results depend on the processing

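With CD8 identity scaling, all genes came to 6395 higher and 2327 lower in ND-646 cultures and to 10115 higher and 1992 lower in tumour. The members came to 0 lower in ND-646 cultures, and to 28 higher and 2 lower in tumour (26 higher and 0 lower beyond 1.5-fold). The other phospholipid genes came to 24 higher and 3 lower in ND-646 cultures and to 38 higher and 4 lower in tumour. Beyond 1.5-fold, DESeq2 size factors and limma-voom each gave 0 members higher in ND-646 cultures and 2 lower in tumour, and no count filter gave 2 lower in tumour. Leaving out 1 library gave 0 to 1 higher in ND-646 cultures and 2 to 4 lower in tumour.

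Log2 fold changes that turned sign with CD8 identity scaling were, in ND-646 cultures, Agpat2 0.10, Lpin2 0.12, Chkb 0.0104, Pemt 0.0515 and Lpgat1 0.10, and in tumour, Gpam 0.86, Agpat3 0.21, Lpin1 0.69, Chkb 0.84, Etnk1 0.23, Pcyt2 0.72, Cept1 0.22, Pgs1 0.81, Mboat1 0.24 and Mboat7 0.75. With DESeq2 or its size factors, Pcyt1a came to -0.0114 and -0.0115 in ND-646 cultures, and in tumour Gpam came to 0.0289 with both and Chkb to 0.00241 and 0.0024. Without 1 library, values that had not passed the test crossed 0 for Gpat4 (-0.0042 to 0.0367), Agpat2 (-0.0698 to 0.00188), Lpin2 (-0.0519 to 0.015), Pcyt1a (-0.0398 to 0.0289), Chpt1 (-0.00355 to 0.0389) and Pemt (-0.239 to 0.0467) in ND-646 cultures and for Gpam (-0.0413 to 0.0407) in tumour. The cause of these differences was not tested.

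Libraries of 1 number did not deviate together (correlations of -0.12 to 0.07 in ND-646 and vehicle and of -0.05 to -0.02 in tumour and spleen), so the numbers do not show a pairing. With the replicate number as a block, 13 members rose and 7 fell in ND-646 cultures, where Lpin1 and Chkb did not pass (adjusted p of 0.0516 and 0.0633), and 19 rose and 9 fell in tumour, where Agpat1 passed (adjusted p = 0.0361). Counts of at most 6 per library left Cds1 in both comparisons and Lpcat2 in ND-646 cultures without a test.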
